A study of Homo sapiens with 8 samples.

Results

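MT-CO1, MT-CO2, MT-CO3, MT-ATP6 and MT-ATP8 are 5 of the 37 genes of human mtDNA and 5 of its 13 genes of proteins. They were taken as a list of names that uses no measured value in its rule, drawn up with earlier results of these data known. They all lie on the plus strand of mtDNA, at positions 5905 to 7446 (MT-CO1), 7587 to 8270 (MT-CO2), 8367 to 8573 (MT-ATP8), 8528 to 9208 (MT-ATP6) and 9208 to 9991 (MT-CO3) in the numbering of the deposited files, which runs 1 nt ahead of the GRCh37 annotation there. Their lengths are 1542, 684, 207, 681 and 784 nt, and MT-ATP8 and MT-ATP6 share 46 nt.

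The samples came from HEK293 cells, an established line derived from human embryonic kidney. In 6 libraries, RNA held by a transfected, myc-tagged and mutated NSun3 or NSun6 was pulled down with an anti-myc antibody 24 hours after transfection and sequenced (miCLIP), with 3 replicates per enzyme. A further 2 samples were bisulfite sequencing of poly(A) RNA, whose reads are in 1 table. NSun6 served as the comparator for NSun3, since no library without an enzyme was analysed here. The enzymes were added to the cells and carried a mutation that traps them on RNA. Read counts thus measure RNA pulled down with an introduced enzyme, and neither the level of the mRNA nor that of the cell's own enzyme. Without a library that lacked an enzyme, trapped RNA was not told apart from background in the pull-down. The paper places NSun3 in mitochondria and describes NSun6 as modifying cytoplasmic tRNAs. The part of location in any difference between the enzymes was not tested.

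Cytochrome c oxidase, complex IV of the respiratory chain, passes electrons to oxygen, and MT-CO1, MT-CO2 and MT-CO3 encode its core subunits. MT-CO1 carries the site where oxygen is reduced, MT-CO2 takes up electrons from cytochrome c, and MT-CO3 packs against MT-CO1. MT-ATP6 and MT-ATP8 encode subunits of the membrane part of ATP synthase, and MT-ATP6 forms the path for protons. All 5 mRNAs are cut from a long precursor transcribed through this side of mtDNA, and MT-ATP8 and MT-ATP6 are translated from a shared mRNA. NSun3 and NSun6 are RNA cytosine methyltransferases. NSun3 is known for the wobble cytosine of mitochondrial tRNA-Met, and NSun6 for tRNA-Cys, tRNA-Thr and mRNA cytosines that start the sequence CUCCA.

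In miCLIP the trapped enzyme stops reverse transcription, so that a read begins beside its cytosine. Each read start was given to the nearest plus-strand cytosine within 2 nt, and in a tie to the upstream one. The sequences below are the cytosine with the most NSun3 reads in each gene and the cytosines that led for NSun6, each in 41 nt of plus-strand mtDNA with the cytosine itself in capitals. The letters were read from the GRCh37 mtDNA at the coordinate minus 1 nt. Of the bisulfite positions inside these windows, those of the deposited table were C or G in this reference at all places except 1 of 29 around 9538 and 1 of 16 around 8704, so a base of the authors' own mtDNA reference can differ there.
MT-CO1 6297, NSun3 (chrM:6277-6317): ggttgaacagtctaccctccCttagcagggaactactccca
MT-CO2 7992, NSun3 (chrM:7972-8012): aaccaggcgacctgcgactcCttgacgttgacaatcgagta
MT-CO3 9538, NSun3 (chrM:9518-9558): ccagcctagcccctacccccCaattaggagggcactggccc
MT-ATP6 8704, NSun3 (chrM:8684-8724): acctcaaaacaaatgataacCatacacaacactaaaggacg
MT-ATP8 8489, NSun3 (chrM:8469-8509): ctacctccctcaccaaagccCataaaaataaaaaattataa
MT-CO3 9321, NSun6 (chrM:9301-9341): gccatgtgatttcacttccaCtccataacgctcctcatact
MT-CO3 9516, NSun3 and NSun6 (chrM:9496-9536): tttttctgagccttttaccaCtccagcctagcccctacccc
MT-ATP6 8626, NSun6 (chrM:8606-8646): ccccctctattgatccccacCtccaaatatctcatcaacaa
The last 3 sequences have the cytosine at the start of ctcca, and none of the first 5 does.

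The libraries held 47352 to 138921 reads for NSun3 and 305392 to 467586 for NSun6, so 1 read was worth 7.20 to 21.1 RPM (reads per 1000000 reads of the library) and 2.14 to 3.27 RPM. On mtDNA lay 24.4% to 37.6% of NSun3 reads and 8.05% to 9.56% of NSun6 reads. Reads in exons of the introduced genes checked the labels. NSUN6 exons held 323 to 428 reads in every NSun6 library and 0 in every NSun3 library. NSUN3 exons held 32 and 19 reads in NSun3 replicates 1 and 2 but 0 in the library labelled NSun3 replicate 3. They held 0 reads in NSun6 replicates 1 and 2 and 8 in replicate 3. The main results are therefore also given without NSun3 replicate 3. Nothing in the labels says whether replicates were separate cultures, so p-values measure the spread between these libraries.

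The first question was how many reads each enzyme had on these mRNAs. NSun3 reads were frequent in all 5 genes and NSun6 reads were rare. Together the genes held 6165, 2307 and 1323 NSun3 reads in replicates 1 to 3 and 147, 224 and 122 NSun6 reads, although the NSun6 libraries were deeper. As a share of mtDNA reads this came to 12.0% ± 0.613 (SD, n = 3) for NSun3 and 0.505% ± 0.0794 (SD, n = 3) for NSun6, and every NSun3 library exceeded each NSun6 library (two-sided exact permutation p = 0.1, which is the lowest that 3 libraries against 3 can reach). Without NSun3 replicate 3 the NSun3 share was 12.2%. Of the reads in the 13 mtDNA mRNA genes, the 5 genes held 31.7% ± 2.20 for NSun3 and 1.48% ± 0.238 for NSun6 (SD, n = 3, two-sided exact permutation p = 0.1).

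MT-CO1 held 13965, 15748 and 7244 RPM in NSun3 replicates 1 to 3 and 123, 94.1 and 91.7 RPM in NSun6 replicates 1 to 3. The NSun3 mean of 12319 ± 4485 RPM was 119 times the NSun6 mean of 103 ± 17.7 RPM (SD, n = 3). The library labelled NSun3 replicate 3 was the lowest of its group, and the groups did not overlap. MT-CO2 held 11661, 11372 and 12354 RPM for NSun3 and 58.7, 36.4 and 0 RPM for NSun6, where 0 reads in replicate 3 allow up to 9.82 RPM. It had the most even NSun3 values of the cytochrome oxidase genes (SD 505 RPM). MT-CO3 held 9343, 8053 and 3273 RPM for NSun3 and 198, 284 and 219 RPM for NSun6. This ratio of 29.5 was the smallest of the 5, and the NSun6 mean of 234 ± 45.2 RPM (SD, n = 3) was the highest.

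MT-ATP6 held 3578, 3395 and 3611 RPM for NSun3 and 49.4, 62.0 and 81.9 RPM for NSun6. Its NSun3 mean was 3528 ± 117 RPM (SD, n = 3). MT-ATP8, the shortest of the genes, held 5831, 4941 and 1457 RPM for NSun3 and 24.7, 2.14 and 6.55 RPM for NSun6, with 8, 1 and 2 reads behind the NSun6 values. In both genes every NSun3 library lay above every NSun6 library. No read of any library began in the 46 nt that the genes share, so no read had to be divided between them.

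**Figure D1:**
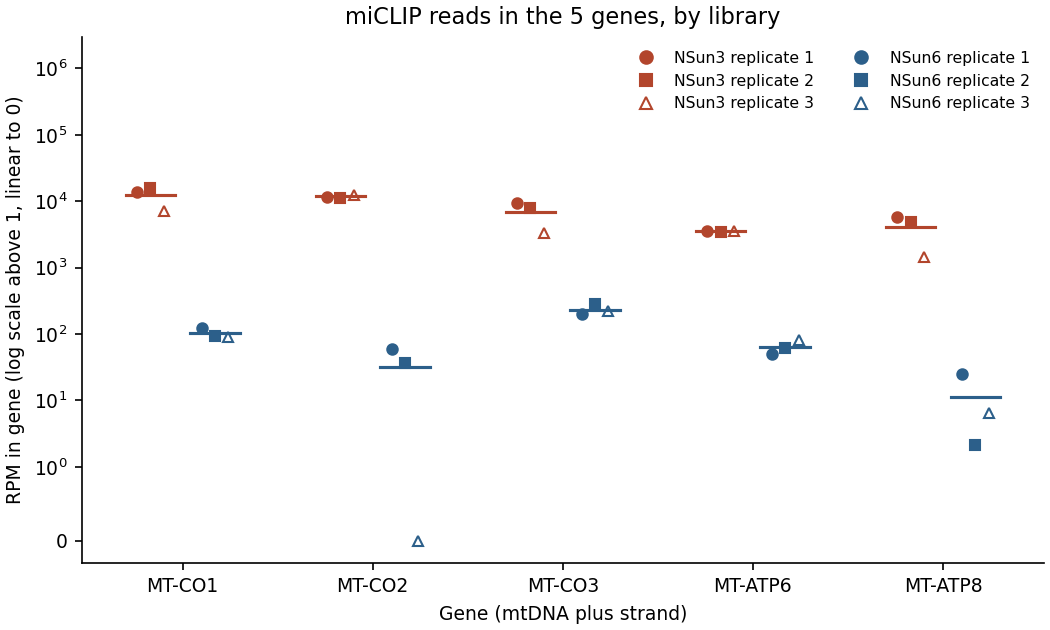
RPM in the 5 genes (y axis, log scale above 1 and linear to 0) for each of the 3 NSun3 (red) and 3 NSun6 (blue) libraries, with the mean of each group as a line. In every gene the NSun3 libraries, at 1457 to 15748 RPM, lie above the NSun6 libraries, at 0 to 284 RPM. By RPM this also held for MT-ND1, MT-ND2, MT-ND4, MT-ND5 and MT-CYB, which are not drawn.

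The quasi-likelihood test of edgeR, fitted over 1587 genes, called all 5 genes higher for NSun3 (adjusted p under 0.05). Over all genes tested, 5.67% were called higher for NSun3 and 83.6% lower. MT-CO1 and MT-CO3 had enough reads in either group to pass the filter on low counts, while MT-CO2, MT-ATP6 and MT-ATP8 passed through the NSun3 libraries alone, so the direction of these 3 calls was fixed by the filter. The log2 fold change was 9.80 ± 1.82 (SE) for MT-ATP8, 9.49 ± 1.95 for MT-CO2, 8.01 ± 1.34 for MT-CO1, 6.78 ± 0.99 for MT-ATP6 and 6.15 ± 1.29 for MT-CO3, with adjusted p of 0.00318, 0.00409, 0.00245, 0.00158 and 0.00436 in edgeR. The median over all genes tested was -7.49, since most genes had NSun6 reads and hardly any NSun3 reads. When the fit was limited to mtDNA features and scaled to mtDNA reads, the median was 0.45 and the genes stood at 2.94 (MT-CO3) to 6.68 (MT-CO2), all called. In that fit 14 of all 27 features tested were called higher for NSun3. Counting each read start once in place of its reads gave 2.91 (MT-CO3) to 5.45 (MT-ATP8), where 23 of 106 genes tested were called higher for NSun3. With RLE scaling in place of TMM the values were 3.95 (MT-CO3) to 7.65 (MT-ATP8).

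Leaving out 1 library at a time moved the log2 fold change to 7.02 to 8.30 for MT-CO1, 8.60 to 10.45 for MT-CO2, 4.82 to 6.40 for MT-CO3, 5.87 to 7.23 for MT-ATP6 and 8.47 to 10.99 for MT-ATP8, all called. The lowest value of every gene was the one without NSun3 replicate 1. The highest was the one without NSun6 replicate 1 for MT-CO1, MT-CO2 and MT-ATP8. Without the library labelled NSun3 replicate 3 the values were 6.40 (MT-CO3) to 10.12 (MT-ATP8).

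As shares of mtDNA reads, the NSun3 and NSun6 means were 3.76% and 0.116% for MT-CO1, 3.83% and 0.0355% for MT-CO2 and 2.06% and 0.268% for MT-CO3. They were 1.14% and 0.0733% for MT-ATP6 and 1.20% and 0.0119% for MT-ATP8. In each gene the NSun3 libraries were all higher than the NSun6 libraries, which held for 35.1% of the 37 mtDNA genes. Each had the smallest exact permutation p of 0.1, and a Benjamini-Hochberg value of 0.168 over the 37 genes, so none passed 0.05 in this test. The fold of the share ran from 7.67 in MT-CO3 to 108 in MT-CO2. For MT-CO2 and MT-ATP8 it rests on few NSun6 reads. Without NSun6 replicate 1 it was 169 in MT-CO2 and 240 in MT-ATP8, and without NSun6 replicate 3 it was 71.8 in MT-CO2.

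By share of mtDNA reads, the other mtDNA mRNAs did not share one direction. MT-ND1, a subunit gene of complex I, also had a higher NSun3 share (12.2% against 1.03%), as had MT-ND2 (0.709% against 0.255%). MT-ND3, MT-ND4L and MT-ND5, also of complex I, went the other way, at 2.59% against 16.8%, 0.410% against 6.29% and 2.81% against 3.48%, with no overlap between enzymes. MT-ND4 and MT-CYB, the cytochrome b gene of complex III, overlapped between enzymes. The edgeR fit over all genes also called MT-ND1 (6.56), MT-ND2 (4.68), MT-ND4 (3.98), MT-CYB (3.17) and MT-ND5 (2.71) higher for NSun3 (log2 fold changes). MT-ND3 and MT-ND4L were not called, and MT-ND6 was not tested. A call in that fit was thus not particular to the genes of cytochrome oxidase and ATP synthase. Every gene of cytochrome oxidase and ATP synthase had a fold of the share above 7, and among the other 8 mRNA genes MT-ND1 (11.8) and MT-ND6 (11.2, with a 0 in several libraries) did.

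**Figure D2:**
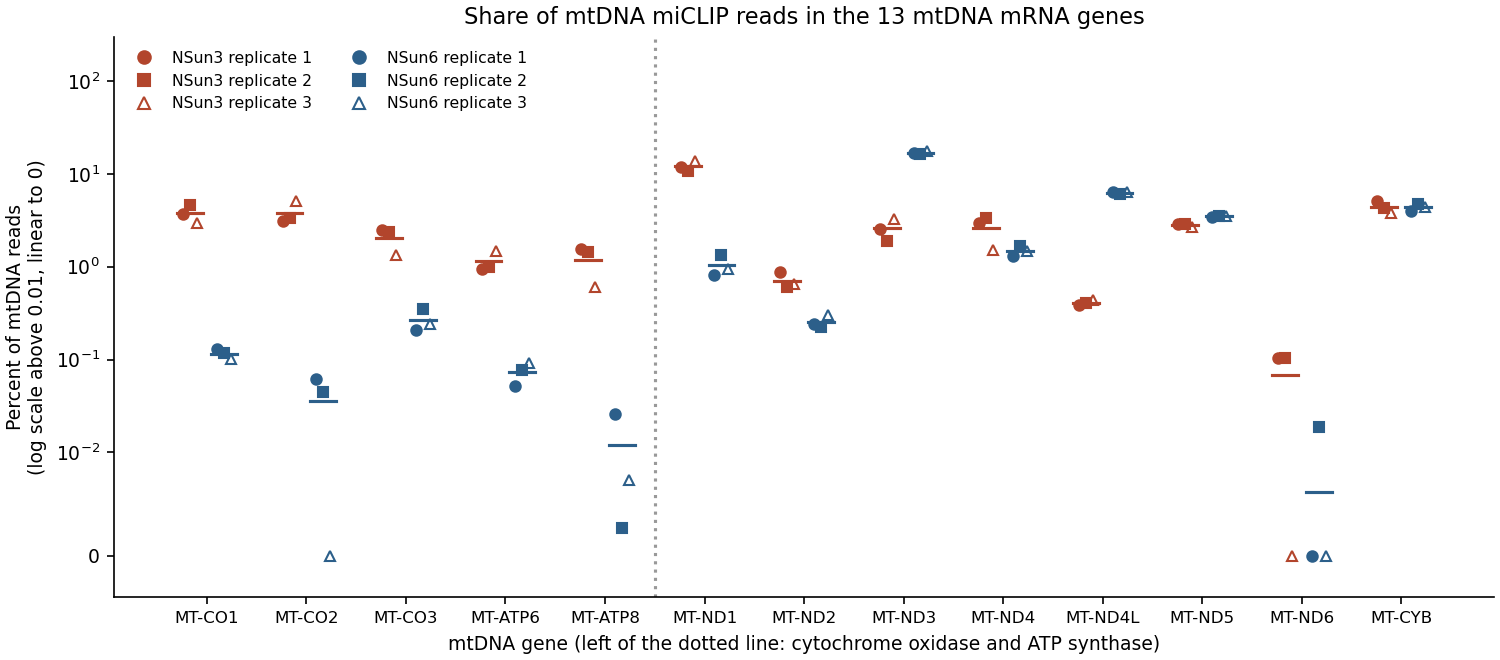
Percent of mtDNA reads (y axis, log scale above 0.01 and linear to 0) in the 13 mtDNA mRNA genes, by library, with group means as lines. Left of the dotted line the 5 genes have all red NSun3 points above all blue NSun6 points, while MT-ND3, MT-ND4L and MT-ND5 show the reverse.

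Per full length of the gene, NSun3 reads were densest in MT-ATP8, at a mean of 19692 RPM per kb, and then in MT-CO2 (17246), MT-CO3 (8788), MT-CO1 (7989) and MT-ATP6 (5180). Several neighbours in this order did not separate. MT-ATP8 ranged from 7039 to 28167 RPM per kb over libraries and spanned the 16626 to 18062 of MT-CO2. MT-CO3 (4175 to 11918) overlapped MT-CO1 (4698 to 10212), and MT-ATP6 (4985 to 5303) lay inside both ranges. On this scale MT-CO2 lay above MT-CO3, MT-CO1 and MT-ATP6 in every library. For NSun6 the order was another one, with MT-CO3 first at 298 RPM per kb (252 to 363), above the other 4 genes in every library, which ranged from 0 to 120.

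On the opposite strand of the same 5 intervals reads were few, at 64, 24 and 0 for NSun3 and 18, 17 and 17 for NSun6. They were 0.686% ± 0.594 of the reads of both strands for NSun3 and 10.1% ± 2.69 for NSun6 (SD, n = 3, two-sided exact permutation p = 0.1). MT-ATP6 and MT-ATP8 had no read of any library on their opposite strand.

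Read starts of both enzymes lay in separate stretches of each gene, in places where a short read has a single match. For each start, the shortest read that matches mtDNA and nothing else in the GRCh37 reference was computed. The authors' own mtDNA reference can differ from it in single bases, so the length needed can differ at some starts. The shortest such read was 30 nt or fewer at 1505 positions of the genes (39.1%), and 574 of these had reads, which held 99.6% of NSun3 and 99.8% of NSun6 reads. At the other 2346 positions only 7 had reads, with 38 reads for NSun3 and 1 for NSun6. At most of these positions, 2181 of them, the longest competing match lay on chromosome 1. The authors kept reads with a single best place, and the lengths of their reads were not measured here. In MT-CO1 only 28.4% of positions needed 30 nt or fewer, and in MT-CO3 55.6%, with MT-ATP6 (32.3%), MT-CO2 (46.3%) and MT-ATP8 (46.4%) between them. A gene's level above thus counts reads from part of its length, while both enzymes are read through the same positions.

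Per kb of the positions that need 30 nt or fewer, the order of the genes for NSun3 changed. MT-CO1 stood at 31883, 35953 and 16538 RPM per kb in replicates 1 to 3, above MT-CO3 at 21430, 18470 and 7508 in every library, the reverse of their order by mean over the full length. MT-CO2, at 35874 to 38973, was above MT-CO1 in replicates 1 and 3 but not in replicate 2. MT-ATP8 ranged from 15179 to 60736 and MT-ATP6 from 15430 to 16415, inside the range of MT-CO3. For NSun6 MT-CO3 was again above the other 4 genes in every library, at 453 to 652 against 0 to 372.

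**Figure D3:**
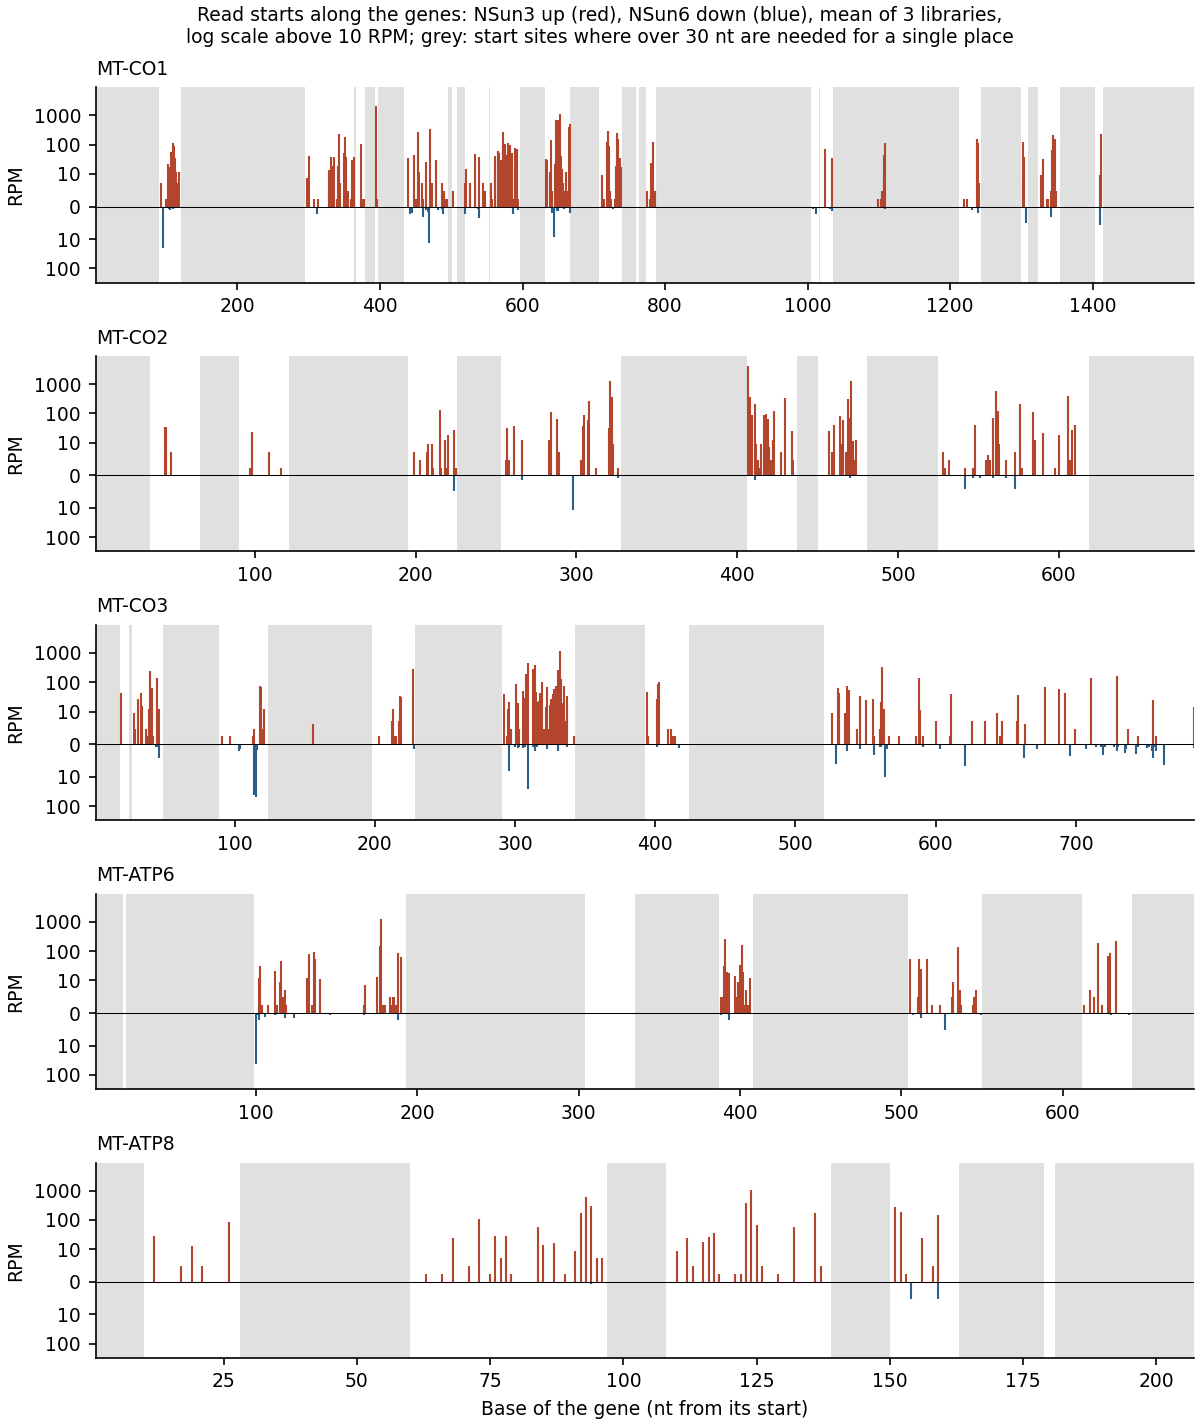
Read starts along each gene (x axis, base from the gene's start) as mean RPM of 3 libraries, NSun3 upward in red and NSun6 downward in blue (log scale above 10 RPM), with start sites that need over 30 nt for a single match in grey. Starts of both enzymes fall in the white stretches, and 7 of 2346 grey positions have any read.

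Relative to the cytosine, NSun3 starts lay most often 1 nt after it (46.7% ± 5.59, SD, n = 3) or at it (31.1% ± 5.28). NSun6 starts were placed alike, at 43.6% ± 9.81 and 31.0% ± 7.08. In 3.06% ± 2.72 of NSun3 reads and 6.51% ± 1.39 of NSun6 reads no cytosine lay within 2 nt. Ties went to the upstream cytosine, which puts starts after a cytosine more often than before it. Starts placed without regard to cytosines would also often fall at or beside one, and their shares were not computed.

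The next question was which cytosines carried the reads. The 5 genes have 1211 plus-strand cytosines, of which 327 had a read in any library. By the threshold of the study's methods, over 50 RPM in at least 2 of 3 replicates, 79 were high-confidence NSun3 sites and 1 was a high-confidence NSun6 site, and no cytosine was both. The NSun3 sites numbered 28 in MT-CO1, 20 in MT-CO3, 16 in MT-CO2, 11 in MT-ATP6 and 4 in MT-ATP8, and 53 of the 79 had no NSun6 read. On all of mtDNA there were 316 such NSun3 sites and 86 NSun6 sites. The same 50 RPM takes more reads in the deeper NSun6 libraries, where 1 read is worth 2.14 to 3.27 RPM. Site counts of the enzymes thus do not rest on equal numbers of reads. Only 23 of the 79 passed 50 RPM in all 3 NSun3 libraries, where over 50 RPM means at least 7, 3 and 3 reads. Since 2 libraries must then both pass, the count was 26 without NSun3 replicate 1, 28 without NSun3 replicate 2 and 71 without the library labelled NSun3 replicate 3. The second-highest NSun3 library stood at 50.4 RPM for the site nearest above the threshold and at 43.2 RPM for the nearest below.

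Of the cytosines in these genes, 25 had enough reads for the site test, and edgeR called 24 higher for NSun3 and 1 lower (adjusted p under 0.05), where 17.4% of all 1737 cytosines tested were called higher for NSun3. All 24 passed the filter on low counts through the NSun3 libraries alone, and the other through the NSun6 libraries alone, so the direction of each of the 25 calls was fixed by the filter. They do not stand for all 327 cytosines with reads. The sites are therefore described by their reads. The leading cytosines below were picked by their mean RPM for an enzyme. Their folds over the other enzyme are thus partly set by that choice and serve as no test. Called cytosines numbered 76 without the library labelled NSun3 replicate 3, 61 without NSun6 replicate 2 and 57 without NSun6 replicate 3, where 76, 66 and 66 were tested. Without NSun6 replicate 1, 28 of 67 tested were called. With mtDNA features only, 51.2% of calls over all cytosines tested were higher for NSun3, against 19.8% in the fit over all features.

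In MT-CO1 the leading cytosine was 6297, base 3 of a CCC (proline) codon, shown above. It had 197, 210 and 41 reads in NSun3 replicates 1 to 3, a mean of 2081 ± 1651 RPM (SD, n = 3), and no NSun6 read, so NSun3 was at least 245-fold higher against a floor of 3 reads per NSun6 library. Replicate 2 was the highest in RPM and replicate 3 the lowest. The next were 6557, with 263, 21 and 43 reads and no NSun6 read, and 6552, with 58, 39 and 49 reads and 0, 2 and 0 NSun6 reads. These sites lie 5 nt apart. Reads in MT-CO1 were spread widely. Its leading cytosine held 10.2%, 25.1% and 12.0% of the gene's reads in replicates 1 to 3.

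In MT-CO2 the leading cytosine, 7992, is base 1 of a CTT (leucine) codon. It had 378, 260 and 263 NSun3 reads (4393 ± 1484 RPM, SD, n = 3), the most of any cytosine in the 5 genes, and 0 NSun6 reads, a difference of at least 517-fold. It alone held 23.3%, 43.1% and 45.0% of the MT-CO2 reads of replicates 1, 2 and 3. The cytosine 8055 followed with 263, 29 and 115 reads against 0, 1 and 0 for NSun6, and 7907 with 362, 92 and 23 against 0, at least 189-fold. Replicate 1 had most of the reads at 7907 and replicate 3 few.

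In MT-CO3 the cytosine 9538 had 246, 93 and 47 NSun3 reads (1506 ± 445 RPM, SD, n = 3) and 0, 0 and 2 NSun6 reads. It is base 1 of a CAA (glutamine) codon and ends a run of cytosines. Upstream of it lay 9522, with 83, 21 and 14 NSun3 reads and 0, 3 and 0 NSun6 reads, and 9516, with 93, 21 and 15 NSun3 reads and 10, 16 and 4 NSun6 reads. Of the leading NSun3 cytosines, 9516 was the one read in every library of both enzymes, and its NSun3 mean of 461 ± 185 RPM was 17.7 times the NSun6 mean of 26.1 ± 11.4 RPM (SD, n = 3).

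In MT-ATP6 the cytosine 8704, base 3 of an ACC (threonine) codon, had 178, 71 and 72 NSun3 reads and 0 NSun6 reads. Its 1281, 1339 and 1521 RPM were the most even values of any leading site, and NSun3 was at least 162-fold higher. It held 35.8% to 42.1% of the gene's NSun3 reads. The cytosine 8918 had 21, 2 and 34 reads, so replicate 2 was below 50 RPM, and 9160 had 11, 11 and 18 reads. In MT-ATP8 the cytosine 8489, base 3 of a CCC (proline) codon, had 279, 78 and 50 NSun3 reads and 0 NSun6 reads, at least 178-fold higher (1512 ± 478 RPM, SD, n = 3). The cytosine 8458 followed with 295, 40 and 19 reads against 0, 1 and 0, and 8516 with 18, 66 and 0 reads against 0. At 8516 the reads came mostly from replicate 2. In the library labelled NSun3 replicate 3, all MT-ATP8 reads lay at 3 positions, and 8489 held 72.5% of them.

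**Figure D4:**
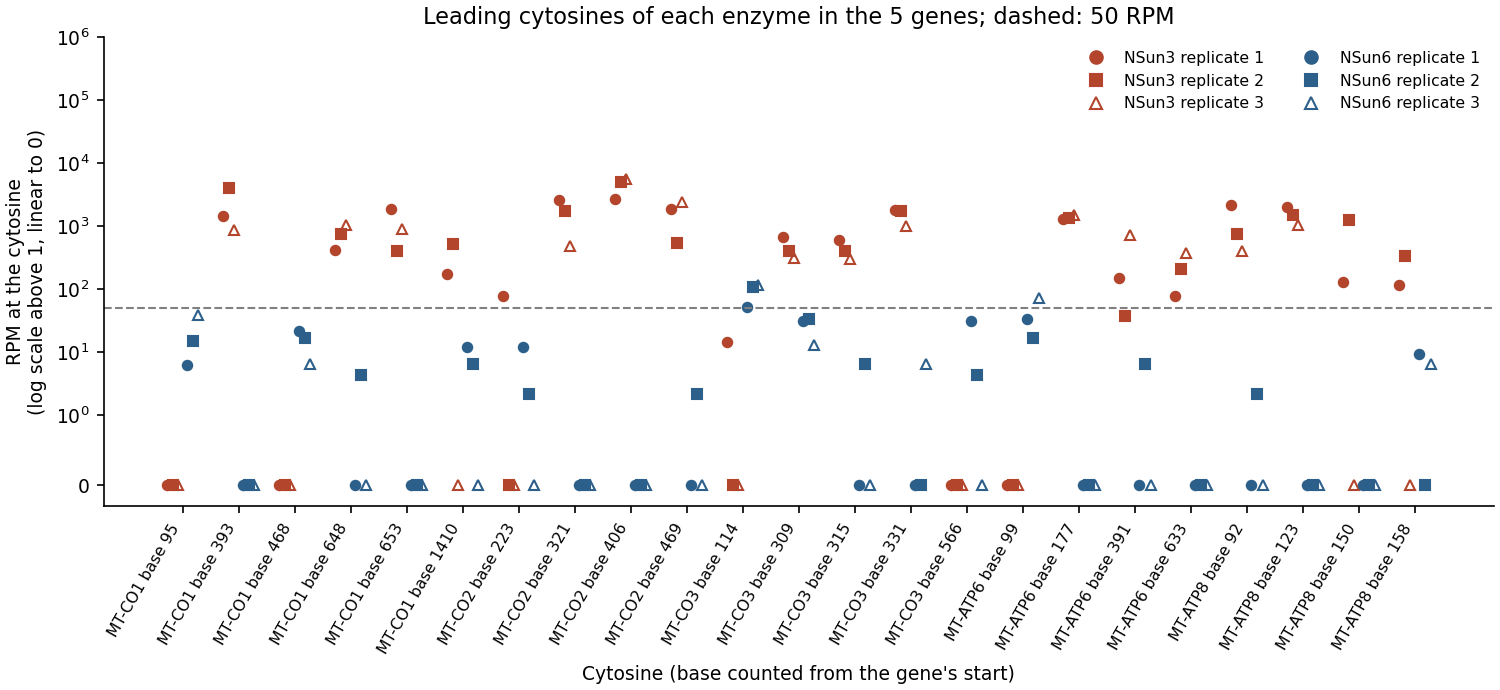
RPM per library (y axis, log scale above 1 and linear to 0) at the leading cytosines of each gene, named by their base from the gene's start, with the 50 RPM threshold dashed. Most cytosines have NSun3 points (red) above 50 RPM and NSun6 points (blue) at or near 0, while base 114 of MT-CO3 shows the reverse. The cytosines were picked by their mean RPM for either enzyme.

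Most read starts of NSun3 replicate 2 were also starts of replicate 1, the deepest NSun3 library. Of the 56 starts of NSun3 replicate 2 in MT-CO1, 44 (78.6%) were also starts of replicate 1, which is 27.2% of the 162 starts of replicate 1. In the other genes these shares were 72.7% to 90.9% of replicate 2 and 28.7% to 29.9% of replicate 1. All 3 NSun3 libraries had reads at 10, 7, 10, 4 and 3 starts of MT-CO1, MT-CO2, MT-CO3, MT-ATP6 and MT-ATP8, out of 17, 11, 13, 8 and 3 starts of replicate 3.

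NSun6 had few reads in these genes, and part of their start positions were also NSun3 starts. Of the NSun6 starts in MT-CO1, MT-CO2, MT-CO3, MT-ATP6 and MT-ATP8, 40.5% of 37, 83.3% of 12, 46.6% of 58, 44.4% of 18 and 66.7% of 3 were shared, which is 8.47%, 10.2%, 22.1%, 11.4% and 4.17% of the NSun3 starts. NSun3 starts themselves numbered 177, 98, 122, 70 and 48, where 438, 317, 436, 220 and 96 positions need 30 nt or fewer, so some sharing arises from the limited positions alone and nothing is read from these shares. The exception among the tested sites was 9321 in MT-CO3, base 3 of a CAC (histidine) codon. It had 17, 50 and 36 NSun6 reads (52.5, 107 and 118 RPM) and 2, 0 and 0 NSun3 reads, and was the only high-confidence NSun6 site of the genes. With the same threshold on reads scaled to mtDNA reads in place of all reads there were 11. It was called lower for NSun3 by edgeR, at -3.27 ± 0.91 (SE) on the log2 scale (adjusted p = 0.00588), a direction that the filter had fixed. The call held without NSun3 replicate 3 (-3.36, edgeR adjusted p = 0.0147), but was lost with the replicate number as a block (-3.50, edgeR adjusted p = 0.106). Without NSun6 replicate 2 or 3 the site did not pass the filter on low counts and was not tested. The cytosine 8626 in MT-ATP6, base 3 of an ACC (threonine) codon, had 11, 8 and 22 NSun6 reads and no NSun3 read, at a mean of 41.0 ± 28.1 RPM (SD, n = 3). That is below the 47.2 RPM that 3 reads are worth on average in the NSun3 libraries, but above the 21.6 RPM of NSun3 replicate 1. The cytosine was not in the site test, so no difference between the enzymes was tested there.

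The other cytosines that led for NSun6 had fewer reads. In MT-CO1 these were 5999, with 2, 7 and 12 reads, 6372, with 7, 8 and 2, and 7314, with 4, 3 and 0. In MT-CO2 7809 had 4, 1 and 0 reads, in MT-CO3 9773 had 10, 2 and 0, and in MT-ATP8 8524 had 3, 0 and 2. None of these was a high-confidence NSun6 site, and 7314, 7809 and 8524 had a higher mean RPM for NSun3 than for NSun6.

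The letters CTCCA (plus strand only, DNA letters for CUCCA) begin at 6 of the 1211 cytosines, or 0.495%, and 5.33% of all 41-nt windows of the genes hold them. The motif was looked at because it is known for NSun6 and with results of these data in view. The 6 first cytosines held 25.9%, 35.7% and 52.5% of the NSun6 reads of the 5 genes in replicates 1 to 3 and 1.54%, 0.910% and 1.13% of the NSun3 reads (two-sided exact permutation p = 0.1, again the lowest). The NSun6 reads among them were at 9321, 9516 and 8626, with 8 more at 9969 in MT-CO3. The remaining CTCCA cytosines, 6883 and 7368 in MT-CO1, had no read of any library, and a read starting there needs 54 and 155 nt for a single match. Outside mtDNA, 1179 of 1794 high-confidence NSun6 sites (65.7%) and 1 of 391 NSun3 sites (0.256%) were first cytosines of CTCCA.

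Of the 79 NSun3 sites, CTCCA began at 1, 9516, and no other word was searched for. A cytosine preceded 54.4% of the sites (95% exact interval 42.8% to 65.7%) and 33.1% of all cytosines of the genes, and a cytosine followed 11.4% (5.34% to 20.5%) and 33.1%. An adenine followed 50.6% (39.1% to 62.1%) and 28.2%. The intervals treat sites as independent although some are neighbours, such as 6554 and 6555, so they serve as no test. A read that starts just after a run of cytosines is given to the last cytosine of the run by the way sites were assigned, and the part of this in these shares was not tested. By place in the codon, 31.6% of the sites were base 1, 32.9% base 2 and 35.4% base 3, against 28.3%, 28.4% and 43.3% of all cytosines of the genes outside the shared 46 nt. The interval for base 3, 25.0% to 47.0%, includes the share of all cytosines.

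Bisulfite sequencing of poly(A) RNA asked whether these cytosines were methylated in the same cell line. Unconverted reads count as methylated, and a cytosine was called at a level of at least 20% with over 5 reads. The table has no replicate values, so no difference in it was tested, and intervals cover counting error of reads only. Of the plus-strand cytosines of the 5 genes, 464 of 989 covered (46.9%) were called, where 0.775% of the 15765855 covered cytosines of the whole table were. In the 7 other plus-strand mRNA genes of mtDNA the share was higher, at 1822 of 2114 (86.2%). By this share of calls MT-CO1 (25.5%), MT-CO2 (24.3%) and MT-CO3 (43.4%) lay below each of those 7 genes, of which MT-CYB was the lowest at 65.4%. By pooled reads MT-CYB, at 2.00%, lay below MT-CO3, at 2.93%. The rest of those 7 genes stood at 12.9% (MT-ND1) to 96.0% (MT-ND3) by pooled reads.

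The genes differed widely. All 69 covered cytosines of MT-ATP8 and all 173 of MT-ATP6 were called, with median levels of 98.3% and 65.1%. Whether these unconverted reads come from methylation, from incomplete conversion or from reads placed on the wrong strand was not tested. In MT-CO3 106 of 244 were called (median level 17.5%), in MT-CO1 97 of 381 (1.78%) and in MT-CO2 33 of 136 (3.16%). Pooling the reads of a gene gave 96.2% in MT-ATP8, 67.8% in MT-ATP6, 2.93% in MT-CO3, 0.887% in MT-CO1 and 0.428% in MT-CO2.

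Median coverage was 46 reads in MT-ATP6, 202 in MT-CO3, 324 in MT-ATP8, 568 in MT-CO1 and 1078 in MT-CO2, so the order of the genes by coverage was not simply that of their levels. Over single cytosines, high levels were found at low and middle coverage. Of the 367 cytosines with 6 to 100 reads 79.8% were called, of the 316 with 101 to 1000 reads 54.1%, and of the 306 with over 1000 reads 0, where the highest level was 15.1%. Within MT-CO1 these shares were 42.7%, 48.8% and 0%, so the share fell above 1000 reads also within a gene. In MT-ATP8 it was 100% in both classes that held cytosines. The part of coverage in the levels was not tested.

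Called cytosines formed stretches. Of 478 calls, with the shared 46 nt counted in both genes, 470 (98.3%) lay in runs of 5 or more neighbouring covered cytosines that were all called. In MT-ATP6 and in MT-ATP8 the covered cytosines formed a single run each. In MT-CO3 a run of 43 cytosines from base 62 to 166 had a median level of 79.4% at 17 to 38 reads. It was followed, after a short run at 30.8%, by 80 cytosines from base 243 to 490 that were not called, at 119 to 6862 reads. In MT-CO1 the levels rose to 86.8% between bases 681 and 705, where coverage fell to 67 to 137 reads, while the cytosines from base 549 to 669 had a median level of 2.16%.

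**Figure D5:**
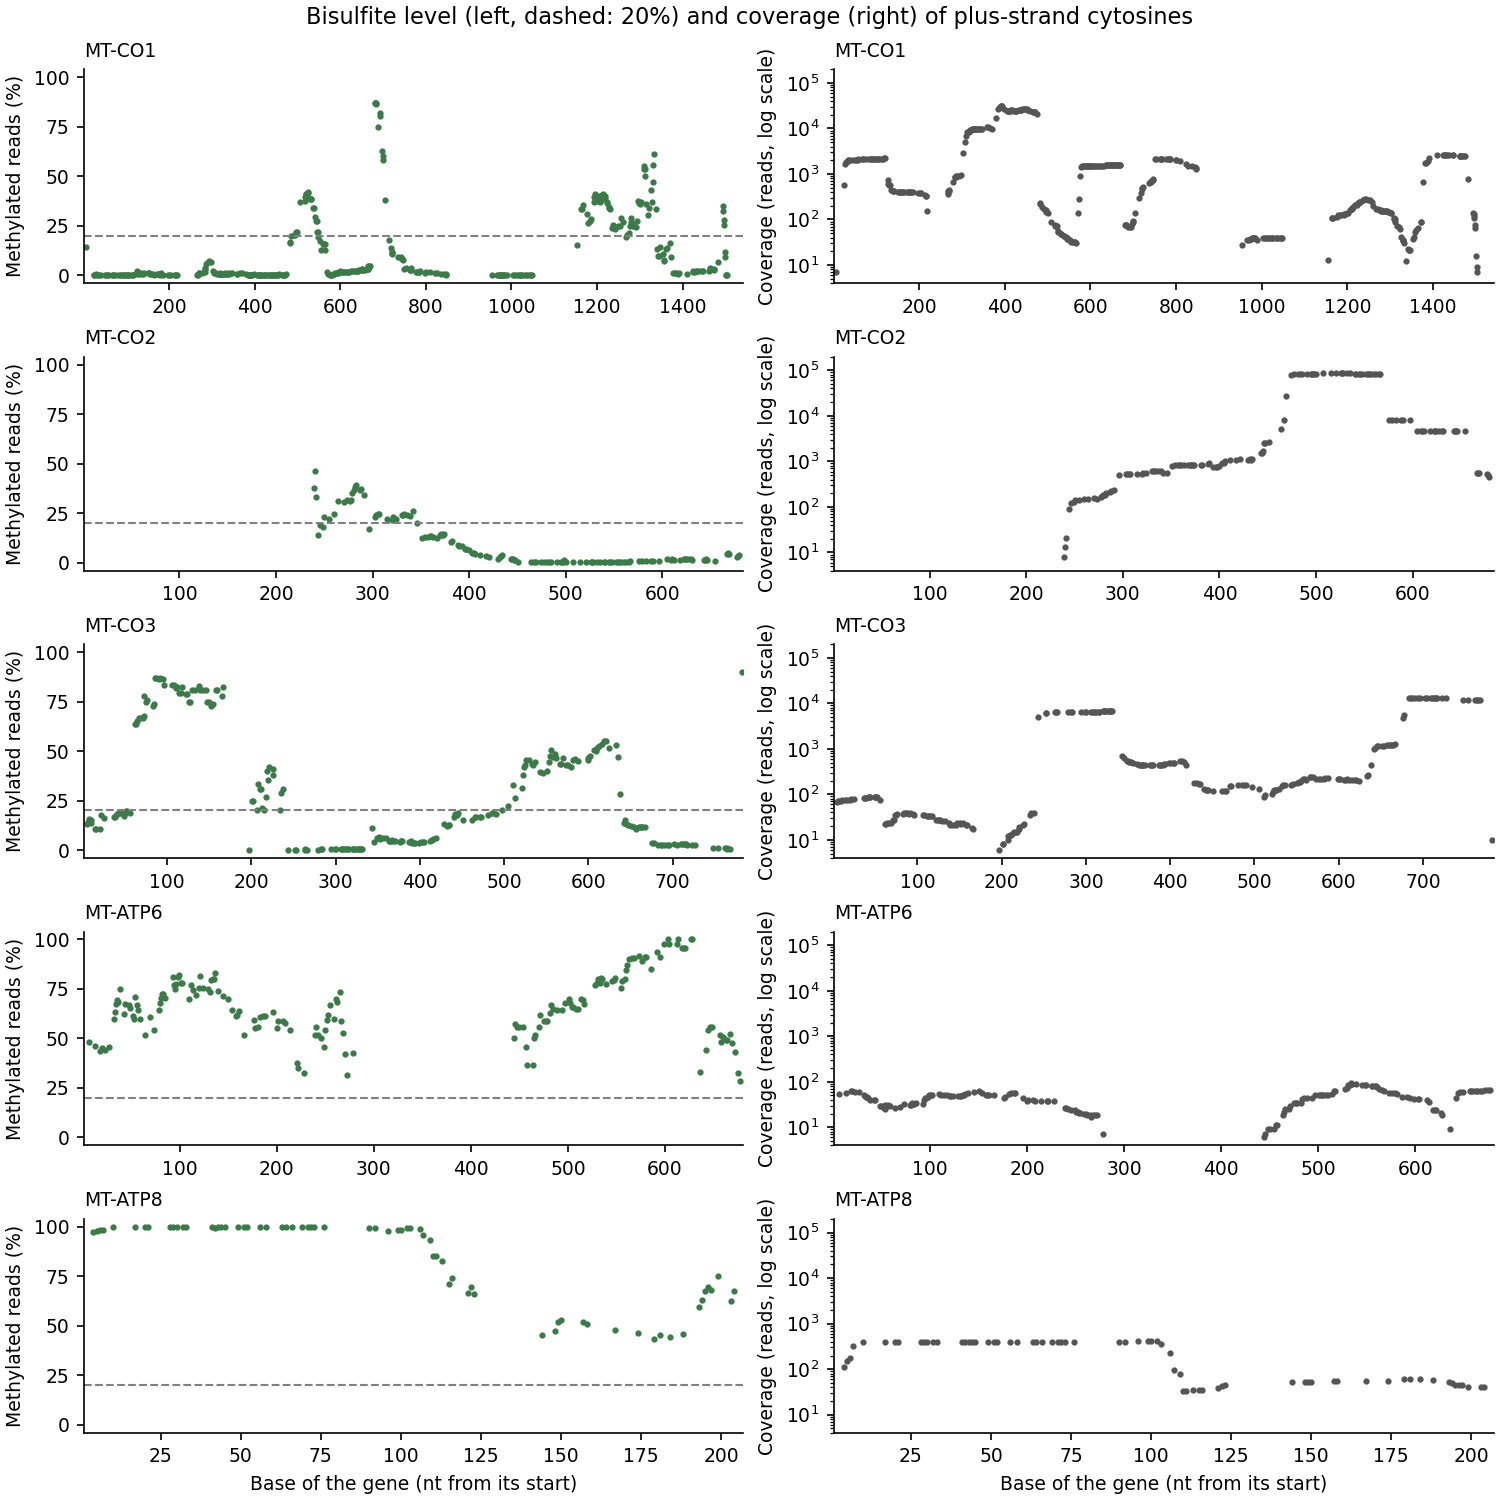
Bisulfite level in percent (left, with the 20% line dashed) and coverage in reads (right, log scale) of each covered plus-strand cytosine along the 5 genes (x axis, base from the gene's start). Neighbouring cytosines have similar levels, and the cytosines with over 1000 reads all lie under the dashed line.

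Among cytosines with over 20 reads, the highest levels of each gene were close to those of their neighbours. In MT-CO1 these were 6585, 6586 and 6587, each with 66 of 76 reads (86.8%, exact 95% interval 77.1% to 93.5%). In MT-CO2 the highest was 7869, with 78 of 200 reads (39%, 32.2% to 46.1%), where the cytosines within 10 nt had a median of 35.2%. In MT-CO3 9293 had 33 of 38 reads (86.8%), against 84.9% around it. In MT-ATP6 9130 had 41 of 41 reads and in MT-ATP8 8376 had 397 of 397. Of these, 7869 had 25 NSun3 reads and 8376 had 5, and the others had no miCLIP read.

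Of the high-confidence NSun3 sites 23 of 74 covered (31.1%) were called, at a median coverage of 960 reads, and of cytosines with no miCLIP read 335 of 691 (48.5%), at 172 reads. The genes differed in this. The shares were 0% against 28.3% in MT-CO1 and 35% against 44.2% in MT-CO3, but 26.7% against 22.9% in MT-CO2. In MT-ATP6 and MT-ATP8 they were 100% in both sets. Few NSun3 sites stood out from the cytosines around them. For 71 high-confidence sites with at least 3 covered cytosines within 10 nt, the level minus the median of those neighbours was 0.0637 percentage points at the median and ranged from -5.52 to 8.02. It was within 5 points at 67 sites. For all 959 cytosines that could be compared in this way, 834 (87.0%) were within 5 points. Of those 959, 8 had an exact interval that lay above the level of every neighbour, at levels of 0.307% to 11.2%, and 1 of the 8 was a high-confidence NSun3 site. At that site, 8050 in MT-CO2, the level was 0.350% of 5148 reads.

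At the leading NSun3 cytosines the exact 95% interval of the level overlapped the levels of the neighbours within 10 nt. The level was 0.292% of 30529 reads at 6297 (interval 0.234% to 0.359%), where the neighbours were at 0.131% to 0.745% with a median of 0.147%. It was 4.37% of 1006 reads at 7992 (neighbours 3.74% to 6.87%), and 0.554% of 6859 reads at 9538 (interval 0.392% to 0.760%), above the 0.388% to 0.481% of its neighbours. It was 55.3% of 47 reads at 8704 and 65.9% of 44 reads at 8489, each just below its neighbours, at 55.6% to 61.4% and 66.7% to 82.9%. The CTCCA cytosines read by NSun6 differed widely among themselves. The level was 79.4% of 34 reads at 9321 (neighbours 78.6% to 83.3%), 82% of 50 reads at 8626 (69.8% to 81.2%) and 0.292% of 6509 reads at 9516 (0.323% to 0.461%).

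Cytosines of the opposite strand, seen as G in the reference, were kept apart. Over the 5 intervals 132 of 462 (28.6%) were called, at a median level of 10.3%. This was mostly in MT-CO1 (35.6%), MT-CO2 (32.6%) and MT-CO3 (30.8%), against 1 of 65 in MT-ATP6 and 1 of 13 in MT-ATP8. In MT-ATP6 the opposite strand had the higher median coverage, 2103 reads against 46, and a median level of 4.39% against 65.1%. In the 7 other plus-strand mRNA genes the order of the strands was that of MT-ATP6, with 86.2% of plus-strand and 1.56% of minus-strand cytosines called.

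Nuclear genes of the same complexes had NSun6 reads and hardly any NSun3 read. Of 16 genes of complex IV subunits 10 had any read and 1 was tested, and of 18 genes of ATP synthase subunits all had reads and 4 were tested. All of these were called lower for NSun3 by edgeR, as were 83.6% of all genes. Each had 0 NSun3 reads in every library and passed the filter through NSun6 alone, so the direction of these calls was fixed by the filter. For ATP synthase assembly 1 of 3 genes was tested and called lower, and of 23 complex IV assembly genes 17 had reads and none was tested. ATP5MC2, a gene of the proton-driven c subunit, had 127, 184 and 90 NSun6 reads and no NSun3 read, at least 7.63-fold higher for NSun6 against 3 reads per NSun3 library. ATP5MG, ATP5F1B (the catalytic beta subunit), COX7A2 and the assembly factor gene ATPAF1 were at least 5.58, 2.03, 3.69 and 3.65-fold higher for NSun6. ATPAF2 had 36 reads in NSun3 replicate 2 against 1 and 0 in replicates 1 and 3, and was not tested.

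Annotated nuclear pseudogenes of the 5 genes held few reads. The 20 with a read had 252, 134 and 74 NSun3 reads and 7, 7 and 1 NSun6 reads, or 3.93%, 5.49% and 5.30% of the reads of genes and pseudogenes together for NSun3. MTCO3P12 on chromosome 1 led with 135, 83 and 1 NSun3 reads, followed by MTCO2P2 with 54, 32 and 17 and MTCO1P40 with 6, 0 and 46, all without NSun6 reads. Reads of such copies and of mtDNA are told apart by few bases, so their place is uncertain.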

How the data were processed

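The authors removed reads with the same random barcode, trimmed adapters and aligned miCLIP reads to hg19 with Bowtie, keeping those with a single best place. The deposited miCLIP values are whole-number counts of reads per position, 1 file per library. The deposited bisulfite table gives, for each cytosine, a count of methylated and a count of unmethylated reads, and the percent column follows from them. How the 2 bisulfite samples were pooled is not given in the sources used here. Strand came from the order of the miCLIP files (plus strand first) and from the reference base of the bisulfite table.

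Reads were counted per position, per nearest cytosine within 2 nt and per gene and strand (GENCODE annotation of GRCh37, mtDNA shifted by 1 nt). RPM used all reads of a file. Counts were tested with edgeR 4.0.16 (quasi-likelihood, TMM, filterByExpr, Benjamini-Hochberg adjusted p under 0.05 over the whole table) in R 4.3.3, and SE was taken as the size of the log2 fold change over the root of F. DESeq2 1.42.0 was an alternative. Shares were compared by exact two-sided permutation tests of 3 against 3. Copies of nuclear tRNA genes were not added to the annotation. In a gene of their strand lay 32.5% to 46.9% of NSun3 and 86.4% to 88.0% of NSun6 reads. How many of the other reads fell on tRNA copies was not counted. The edgeR code was first tested on simulated counts. A floor is 3 reads per library. Intervals are exact binomial at 95%, and cover counting error only.

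Named sites are, per gene, the 3 cytosines with the highest mean RPM for each enzyme among those read in at least 2 of 3 replicates, the 5 highest bisulfite levels over 20 reads, up to 5 pseudogenes with most NSun3 reads and up to 5 nuclear genes with the lowest adjusted p. The genes, lists and the motif were chosen with earlier results of these data known. ATPAF2, 8050, 9969 and the CTCCA cytosines without reads were named after their values were seen.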

Additional observations from a re-analysis of the deposited data

How the results depend on the processing

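All 5 genes were called higher for NSun3 in every one of the 13 other fits of the gene test (other scaling, filter, tool, mtDNA only, read starts counted once, replicate block, each library left out), and the share of mtDNA reads kept its direction in every alternative. In the main fit MT-CO2, MT-ATP6 and MT-ATP8 passed the filter through the NSun3 libraries alone. The direction of their calls in other fits with that filter is thus no separate support. Outside the mtDNA fit, 3.40% (without NSun3 replicate 1) to 28.8% (read starts counted once) of calls over all genes were higher for NSun3. The median log2 fold change over all genes tested was -7.82 with RLE scaling, -7.47 without a scaling factor, -3.84 in DESeq2 and 0.45 for mtDNA features only. With mtDNA features only, 14 of 27 tested were called higher for NSun3. That was 70% of calls, against 6.36% of calls in the fit over all genes. Calls over all genes numbered 1416 of 1587 with the filter and 4040 of 15534 without it. Of 350 alternative values 338 were classed as unchanged, 11 as moved, 1 as weaker and 0 as reversed. The weaker one was the NSun6 site 9321 with the replicate number as a block. Counts have no direction, and a change from 25 called cytosines to 30 was still classed as unchanged. The exact permutation test of shares cannot fall below p = 0.1 with 3 libraries against 3. Shares thus could not change side of the threshold, and calls whose direction the filter fixed could hardly reverse. The 338 is thus partly set in advance. Cytosines of the genes called in the site test numbered 121 without a filter, and 28 to 76 when a library was left out, with 76 without NSun3 replicate 3, 61 without NSun6 replicate 2 and 57 without NSun6 replicate 3 and 28 of 67 tested without NSun6 replicate 1. The count of high-confidence NSun3 sites was 23 with all 3 replicates required and 26 to 71 with a replicate left out, at 26 without NSun3 replicate 1 and 28 without NSun3 replicate 2. The single NSun6 site became 3 at over 20 RPM and 11 when RPM was scaled to mtDNA reads. Called bisulfite cytosines fell to 171 at coverage over 100 reads and were 132 on the minus strand.

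Deviations of same-numbered libraries from their group means correlated at only 0.0402, 0.0556 and 0.0037. NSun3 replicates 1 and 2 correlated best with the NSun6 library of the same number, and NSun3 replicate 3 with NSun6 replicate 1. Most genes tested had hardly any NSun3 reads, so these values cannot exclude a pairing by number. With the number as a block, 1176 genes were called in place of 1416, and all 5 genes and 24 of 25 cytosines were still called. The NSun6 site 9321 then had a log2 fold change of -3.50 and an adjusted p of 0.106 in edgeR, against 0.000199 to 0.0237 in its other alternatives, and it did not pass the filter without NSun6 replicate 2 or 3. With 1 read worth up to 21.1 RPM in NSun3 libraries, sites under about 3 reads there could not be seen.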
